A study of Mus musculus with 3 samples.

Results

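The genes examined here encode growth factors of the epidermal growth factor (EGF) family and their receptors. They are 8 in number: the ligand genes Hbegf, Ereg, Areg, Epgn, Tgfa and Nrg1, and the receptor genes Egfr and Erbb2. The set was chosen by a measured value, the lower level of Hbegf on day 14 than on day 4 of a culture in which mouse testis cells were driven towards Leydig cells, so that difference is a description and carries no test. Levels of 7 of the 8 genes were read among 24698 genes, and Epgn was not analysed here.

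The cells came from testes of adult C57BL/6 males aged 8 to 12 weeks and were sorted as Sca1+/cKit-, a gate that holds interstitial progenitor cells and leaves out mature Leydig cells. They were plated on Matrigel at 100000 cells per well, rested for 18 h in medium with 10% FBS, and expanded for 3 days with PdgfAA, PdgfBB and Fgf2 (10 ng/ml each) and SAG (0.5 µM), an activator of hedgehog signaling. The differentiation medium that followed held the same factors plus 5 mM LiCl2, which activates Wnt signaling, and 10 µM DAPT, which blocks Notch signaling. Cells were collected on days 4, 7 and 14, the first of them at the end of expansion, and read by Drop-seq, which tags every RNA molecule caught in a droplet with its own barcode, so that a unique molecular identifier (UMI) stands for 1 molecule. No EGF-family ligand is listed among the factors added to either medium, while the recovery medium held serum.

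EGF-family ligands are made as membrane-anchored precursors, and metalloproteases of the ADAM family cut them free. They bind receptor tyrosine kinases of the ErbB family, which pair with each other and relay the signal through the kinase ERK to a set of early response genes. HB-EGF, epiregulin, amphiregulin, epigen, TGF-alpha and betacellulin all bind the EGF receptor, whereas neuregulin 1 binds ERBB3 and ERBB4, and ERBB2 has no known ligand of its own and serves as a partner of the other receptors. In Leydig cells, EGF receptor signaling is known to take part in steroid synthesis stimulated by luteinizing hormone.

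The ligand genes Epgn, Ereg, Areg and Btc (betacellulin) lie side by side on chromosome 5 of GRCm38, within 375.5 kb, with gaps of 39.4 kb between Epgn and Ereg, 46.0 kb between Ereg and Areg and 208.8 kb between Areg and Btc. Tgfa lies on chromosome 6 (86195223 to 86275719), Nrg1 on chromosome 8 (31814551 to 32884029), Egfr on chromosome 11 (16752203 to 16918158) and Erbb2 further along the same chromosome (98412470 to 98437716). What makes these ligands 1 family is the EGF-like segment that contacts the receptor, with 6 cysteines at fixed spacing. The coding segments of 4 of the ligands are printed because they carry the likeness between genes that were read at unlike levels in this culture. Each was taken from the GRCm38 genome at the GENCODE vM21 annotation, runs 5′ to 3′ from the first to the last of the 6 cysteine codons, covers 36 codons in exons 3 and 4 of its transcript, and has the cysteine codons in capitals.
Ereg (chr5:91088496-91089111, plus strand): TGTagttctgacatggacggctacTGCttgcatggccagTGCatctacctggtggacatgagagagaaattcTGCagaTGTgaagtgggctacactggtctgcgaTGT
Btc (chr5:91362421-91366197, minus strand): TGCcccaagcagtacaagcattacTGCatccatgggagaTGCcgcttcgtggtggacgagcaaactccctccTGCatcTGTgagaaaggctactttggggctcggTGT
Areg (chr5:91143614-91144364, plus strand): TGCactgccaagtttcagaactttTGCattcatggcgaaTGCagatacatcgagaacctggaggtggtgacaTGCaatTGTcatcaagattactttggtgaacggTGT
Tgfa (chr6:86263200-86269960, plus strand): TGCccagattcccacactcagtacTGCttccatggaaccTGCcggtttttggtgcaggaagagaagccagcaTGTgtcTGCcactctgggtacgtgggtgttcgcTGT
The 4 segments have the same length of 108 bases and the same spacing of cysteine codons, and their bases were identical at 45.4% (Ereg and Tgfa) to 62.0% (Btc and Tgfa) of positions.

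The cells kept by the authors numbered 2980 on day 4, 2171 on day 7 and 973 on day 14, with 12677110, 11627440 and 5324400 UMIs and medians of 2886.5, 3285 and 3272 UMIs per cell. No cell barcode was shared between libraries. Within the libraries, 43.8%, 47.3% and 51.8% of barcodes shared their first 11 of 12 bases with another one, so some cells may have been counted under several barcodes, which leaves summed levels unchanged. There is 1 library per day, cells of 1 library are not replicates, and a day and its library cannot be told apart, so no test was possible. Levels are UMIs per 1000000 UMIs of the cells named (CPM) with exact Poisson 95% intervals, and ratios have exact 95% intervals from the same counts. These intervals cover counting error only. A UMI marks 1 captured transcript end whatever the length of the transcript, so levels of different genes were set side by side without length scaling. Markers of other cell types also differed between the libraries: the 9 macrophage markers summed to 10.6, 25.1 and 234.8 CPM on days 4, 7 and 14 (C1qa at 0 on days 4 and 7, Cd74 on day 7 and C1qb on day 14), and the 8 Sertoli cell markers to 29.0, 25.3 and 179.6 CPM (Cst9 at 0 on days 4 and 7, Tsx at 0 on day 4). Most of these sums came from 1 gene: on day 14, 199.6 CPM of the macrophage sum and 102 CPM of the Sertoli cell sum. On day 7, 1 gene gave 19.35 CPM of the macrophage sum. The 6 germ cell markers summed to 116.3, 19.2 and 39.1 CPM, with Ddx4 at 0 on day 7. The 5 epithelial markers summed to 4.50, 1.204 and 0 CPM, with all 5 at 0 on day 14. Whether such cells were present, and their part in the levels below, was not tested.

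**Figure D1:**
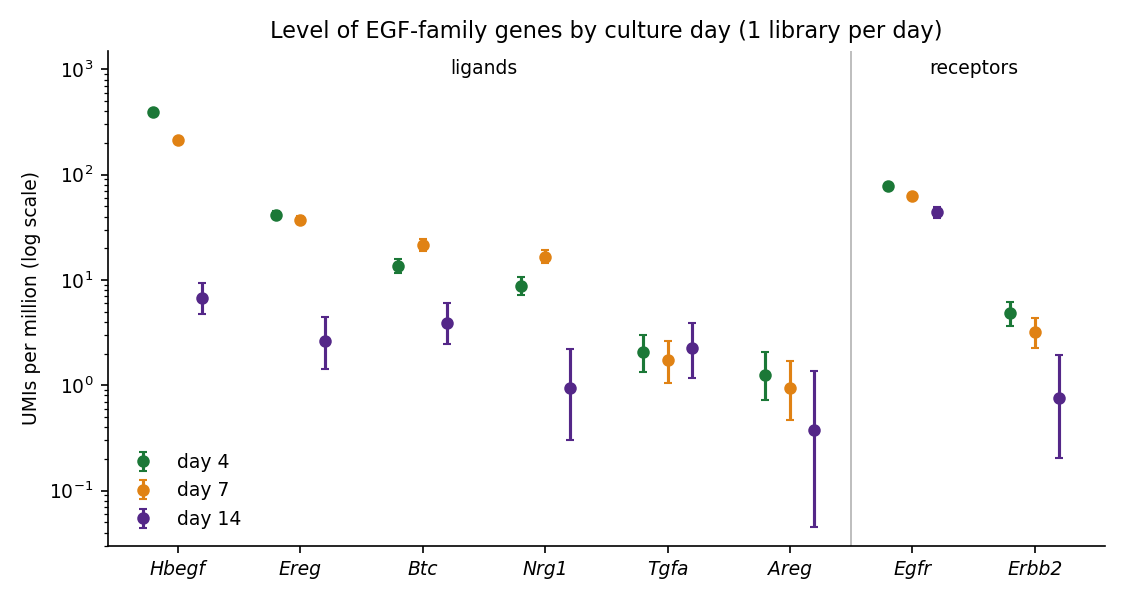
Level of Hbegf, Ereg, Btc, Nrg1, Tgfa, Areg, Egfr and Erbb2, in CPM on a log axis, by culture day (1 library per day). Bars are exact Poisson 95% intervals. Hbegf stood at 390.8 on day 4, 211.6 on day 7 and 6.76 on day 14, while Egfr stayed between 43.8 and 78.4.

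Among the ligands, Hbegf, on the minus strand of chromosome 18 (36504927 to 36515805), was the most abundant on days 4 and 7. HB-EGF is made by many stressed or wounded tissues and, while still anchored to the membrane, also signals to neighbouring cells. The gene was read at 390.8 CPM on day 4 (380–402, 4954 UMIs), at 211.6 CPM on day 7 (203–220, 2460 UMIs) and at 6.76 CPM on day 14 (4.74–9.36, 36 UMIs). The 3 intervals did not overlap, and the level was highest on day 4 and lowest on day 14. The day 7 level was 0.541 of the day 4 level (0.516–0.568), the day 14 level was 31.3-fold lower than that of day 7 (22.5–44.8), and it was 57.8-fold lower than that of day 4 (41.7–82.6). On the log2 scale with a pseudocount of 1 CPM, the last difference, which chose the genes, was -5.66.

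Ereg, the gene of epiregulin, kept its level between days 4 and 7 and was low on day 14. It gave 526 UMIs on day 4 (41.5 CPM, 38.0–45.2), 432 on day 7 (37.2 CPM, 33.7–40.8) and 14 on day 14 (2.63 CPM, 1.44–4.41). The ratio of day 7 to day 4 was 0.895 (0.787–1.02), an interval that includes no difference. The day 14 level was 14.1-fold lower than that of day 7 (8.33–26.1).

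Nrg1, the gene of neuregulin 1, had its highest level on day 7. It gave 112 UMIs on day 4 (8.83 CPM, 7.27–10.6), 194 on day 7 (16.7 CPM, 14.4–19.2) and 5 on day 14 (0.939 CPM, 0.305–2.19). The level of day 7 was 1.89 times that of day 4 (1.49–2.40) and 17.8 times that of day 14 (7.48–55.3). Nrg1 was thus the only ligand of the chosen genes that stood higher on day 7 than on day 4 beyond counting error. Its main receptors were almost unread, with 1, 0 and 0 UMIs of Erbb3 and 1, 0 and 1 UMIs of Erbb4 on days 4, 7 and 14.

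Tgfa and Areg rested on few UMIs on every day. The limit of detection is 3 UMIs, or 0.237, 0.258 and 0.563 CPM on days 4, 7 and 14, and only Areg on day 14 was below it. Tgfa, the gene of TGF-alpha, gave 26, 20 and 12 UMIs (2.05, 1.72 and 2.25 CPM), and its day 14 level was 1.10 times that of day 4, with an interval of 0.505 to 2.26. Areg, the gene of amphiregulin, gave 16, 11 and 2 UMIs (1.26, 0.946 and 0.376 CPM). No order of the days could be read for either gene at this depth.

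The receptor gene Egfr differed less between days 4 and 14 than Hbegf, Ereg and Nrg1. It gave 994 UMIs on day 4 (78.4 CPM, 73.6–83.4), 728 on day 7 (62.6 CPM, 58.1–67.3) and 233 on day 14 (43.8 CPM, 38.3–49.8). The intervals of the 3 days did not overlap and lay in the order of the days, with ratios of 0.799 for day 7 over day 4 (0.725–0.880) and a 1.79-fold lower level on day 14 than on day 4 (1.55–2.08). Egfr was therefore below the Hbegf level on days 4 and 7 and above it on day 14. Erbb2 was low throughout, at 61, 37 and 4 UMIs (4.81, 3.18 and 0.751 CPM), and its day 14 level was 6.41-fold below that of day 4 (2.38–24.3).

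A difference was counted when it passed 2-fold on the log2 scale with a pseudocount of 1 CPM, among genes with at least 20 UMIs in the comparison. From day 4 to day 7, 0 of 7 genes passed in either direction, where 2.76% of 12954 genes of the whole table passed as lower and 2.25% as higher. From day 7 to day 14, 4 of 6 genes passed as lower (Hbegf, Ereg, Nrg1 and Erbb2) and 0 as higher, with 14.0% lower and 10.1% higher of 12656 genes. From day 4 to day 14, the same 4 of 6 genes passed as lower and 0 as higher, with 15.3% lower and 13.5% higher of 12712 genes. Both comparisons hold the day 14 value of Hbegf that chose the genes, so these counts are descriptions and nothing is read from them. Each library enters 2 of these 3 comparisons. The median log2 ratio over all these genes was 0.09, -0.13 and -0.05 in the 3 comparisons.

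The family has 7 further genes, of which Btc alone had more than 20 UMIs on a day. Btc encodes betacellulin and gave 172, 251 and 21 UMIs (13.6, 21.6 and 3.94 CPM). It shared with Nrg1 a higher level on day 7 than on day 4, by 1.59 times (1.31–1.94), and was 5.47-fold lower on day 14 than on day 7 (3.50–8.998). Egf itself gave 15, 10 and 10 UMIs, Nrg2 3, 2 and 5, Nrg4 4, 4 and 2, and Nrg3 none on any day, which allows at most 0.237, 0.258 and 0.563 CPM.

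To place these levels in cell states, the cells were clustered after the EGF-family genes and the pathway genes below had been left out, so the clusters did not rest on them. Names were given from fixed marker genes. On day 4, 2224 cells (74.6%) were differentiating myofibroblast-like (markers such as Acta2, Actn1 and Lmod1), 587 (19.7%) were proliferating progenitor-like (Mki67, Top2a) and 93 (3.12%) were differentiating Leydig-like (Eln, Mfap2, Mmp2). On day 7, 1278 cells (58.9%) were ECM myofibroblast-like (Postn, Tnc), 475 (21.9%) proliferating progenitor-like, 311 (14.3%) differentiating Leydig-like and 74 (3.41%) differentiating myofibroblast-like. On day 14, 542 cells (55.7%) were differentiating Leydig-like and 414 (42.5%) were Leydig-like (Cyp11a1, Hsd3b1, Insl3). The day 4 naming moved with the settings, since 794 day 4 cells were in an unnamed cluster with 30 components, 701 were interstitial progenitor-like after doublet removal and 575 at resolution 1.2, and 714 were in a cluster named germ cell-like at resolution 0.4. Of the 973 cells of day 14, 0 were myofibroblast-like, which allows a share of up to 0.308%. The states that hold most cells thus differ completely between days 4 and 14, and only states with at least 50 cells on a day are given below.

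**Figure D2:**
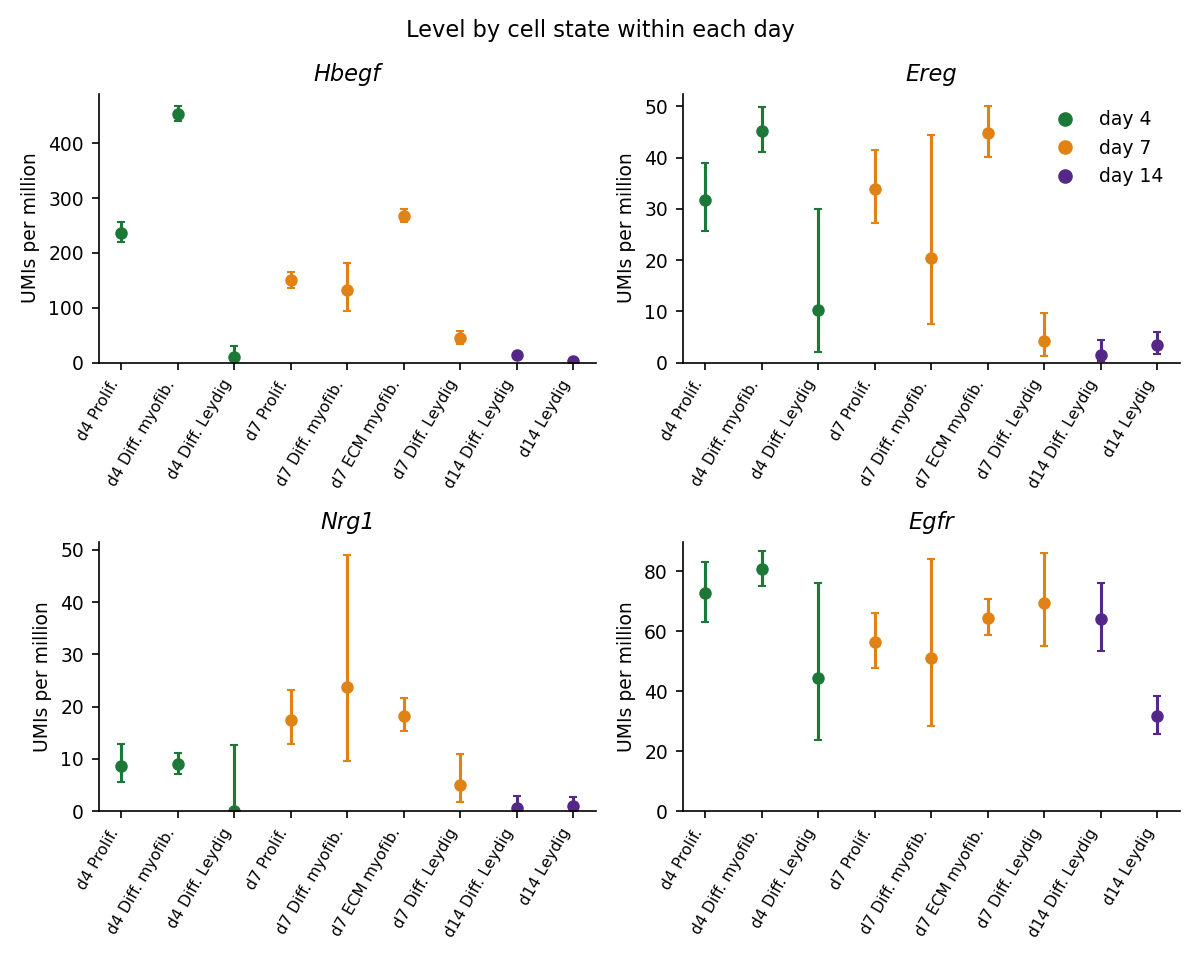
Level of Hbegf, Ereg, Nrg1 and Egfr in CPM by cell state within each day (d4, d7, d14; bars are exact Poisson 95% intervals; every axis starts at 0 and has its own scale). On day 4 Hbegf read 453 in differentiating myofibroblast-like and 10.3 in differentiating Leydig-like cells, while Egfr was between 31.6 and 80.6 in all states shown.

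On days 4 and 7, within 1 library each, Hbegf was highest in the myofibroblast-like state with most cells. Its level was lowest in differentiating Leydig-like cells, with proliferating cells in between. The smaller differentiating myofibroblast-like state of day 7 was not high, at 0.615 of the other named states of that day together (0.436–0.843). On day 4, Hbegf stood at 453 CPM (440–467) in differentiating myofibroblast-like cells, 237 CPM (220–256) in proliferating cells and 10.3 CPM (2.11–29.97, 3 UMIs) in differentiating Leydig-like cells. The differentiating myofibroblast-like level was 44.2 times the differentiating Leydig-like level (15.1–214), and the proliferating level was 0.523 of the differentiating myofibroblast-like level (0.482–0.567). The low level belongs to 93 cells, 90 of them in the cluster led by Eln, Entpd2 and Mfap2, and their name depended on the clustering: at resolution 1.2 only 4 day 4 cells were differentiating Leydig-like and 84 lay in an unnamed cluster whose best list was still that one. With a state given to each cell by itself, the log2 ratio of Hbegf in differentiating Leydig-like cells to the other states of day 4 was -1.84 in place of -5.16. On day 7, Hbegf stood at 268 CPM (256–280) in ECM myofibroblast-like, 150 CPM (136–166) in proliferating, 133 CPM (94.3–181) in differentiating myofibroblast-like and 44.3 CPM (33.2–57.9) in differentiating Leydig-like cells. The ECM myofibroblast-like level was 6.05 times the differentiating Leydig-like level (4.604–8.10), and the intervals of the proliferating and differentiating myofibroblast-like cells overlapped. On day 14, Hbegf stood at 13.8 CPM (9.11–20.1, 27 UMIs) in differentiating Leydig-like and 2.76 CPM (1.26–5.24, 9 UMIs) in Leydig-like cells, a ratio of 5.00 (2.28–12.1). Of those 27 UMIs, 11 came from 2 cells, and without these the level was 8.30 CPM (4.74–13.5). Placed in 1 order over the 3 days, the lowest levels, those of both day 14 states and of the day 4 differentiating Leydig-like cells, were not separated by the interval of the last.

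Shares of cells with a Hbegf UMI followed the order of the levels across days after each cell had been thinned to 1500 UMIs, which left 2227, 1742 and 794 cells. A Hbegf UMI was seen in 30.9% of thinned cells of day 4 (29.0–32.9), 18.5% of those of day 7 (16.7–20.4) and 0.630% of those of day 14 (0.205–1.46). Before thinning the shares were 41.2%, 34.9% and 2.57%. By state, the thinned share on day 4 was 34.2% of differentiating myofibroblast-like, 23.7% of proliferating and 2.86% (0.348–9.94) of differentiating Leydig-like cells, at median depths of 2850.5, 3308 and 2819 UMIs before thinning. The culture holds no state known to lack the gene, and the last value is the lowest of the states given for that library. Barcodes that the authors did not keep as cells read 355 CPM of Hbegf on day 4 (268–459) and 184 CPM on day 7 (115–278), near the levels of the kept cells, and the part of RNA free in the droplets was not tested. On day 7 the thinned share was 22.9% of ECM myofibroblast-like and 5.31% of differentiating Leydig-like cells. On day 14 it was 1.05% of differentiating Leydig-like and 0.251% of Leydig-like cells.

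Hbegf was also unevenly spread over cells. Among thinned cells, 156 of day 4 (7.00%) and 30 of day 7 (1.72%) held 3 or more Hbegf UMIs, with at most 13 and 6 in a cell, while no cell of day 14 held more than 2. The Fano factor, the variance over cells divided by the mean, which is 1 for pure counting, was 2.35 for Hbegf on day 4 and 1.65 on day 7. It was 1.08 and 1.14 for Ereg and 1.04 and 1.06 for Egfr. These genes had at most 0.107 UMIs per thinned cell on those days, against 0.578 and 0.263 for Hbegf. The factor depends on the level as well as on the spread, so the genes cannot be ranked by it.

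**Figure D3:**
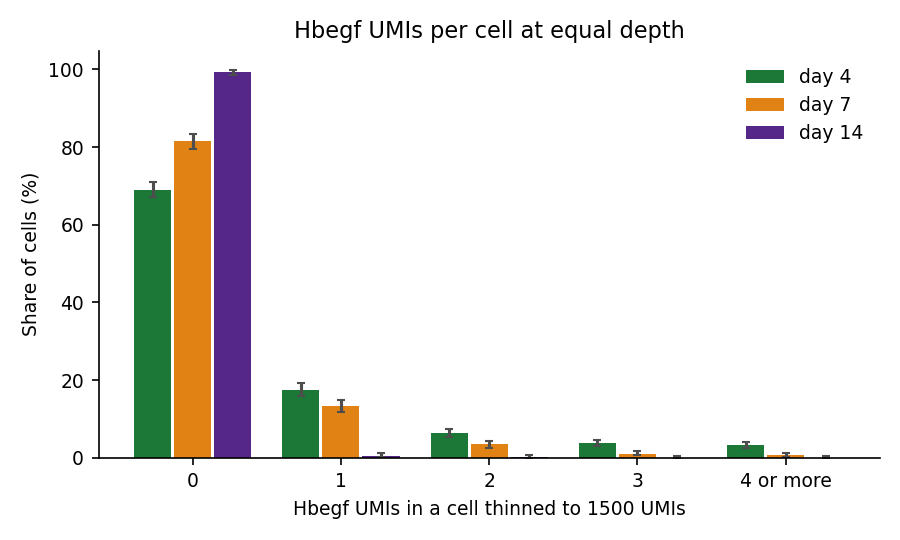
Share of cells, in percent, with 0, 1, 2, 3 and 4 or more Hbegf UMIs after each cell was thinned to 1500 UMIs, by day (bars are shares, lines exact Clopper-Pearson 95% intervals over cells). Cells with no Hbegf UMI made up 69.1% on day 4, 81.5% on day 7 and 99.4% on day 14.

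For Hbegf, the states that held its UMIs and its level within a state were then set beside each other. Differentiating myofibroblast-like cells held 84.9% of the day 4 Hbegf UMIs and 73.2% of all UMIs of that day, and ECM myofibroblast-like cells held 79.8% of the day 7 Hbegf UMIs and 63.0% of all UMIs. Within proliferating cells, the day 7 level was 0.634 of the day 4 level (0.559–0.718), and within differentiating myofibroblast-like cells it was 0.293 (0.208–0.401). Within differentiating Leydig-like cells the day 7 level was instead 4.32 times that of day 4 (1.40–21.6, resting on 3 UMIs on day 4), and the day 14 level was 0.312 of that of day 7 (0.189–0.505). Most differentiating Leydig-like cells of days 4 and 7 fell in a different cluster (90 and 281 cells, led by Eln, Entpd2 and Mfap2) from those of day 14 (526 cells, led by Slc38a5, Gpx3 and Mmp2), so the same name covers partly different cells.

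Ereg had a pattern by state like that of Hbegf at a lower level. On day 4 it stood at 45.3 CPM (41.0–49.8) in differentiating myofibroblast-like, 31.8 (25.6–39.0) in proliferating and 10.3 (2.11–29.97) in differentiating Leydig-like cells. On day 7 the Ereg level was 44.9 CPM (40.2–50.003) in ECM myofibroblast-like cells, 33.8 (27.2–41.5) in proliferating, 20.4 (7.49–44.4) in differentiating myofibroblast-like and 4.18 (1.36–9.74) in differentiating Leydig-like cells. The ECM myofibroblast-like level was 10.7 times the differentiating Leydig-like level of that day (4.56–33.3). Unlike Hbegf, Ereg differed little between days within proliferating cells, with a ratio of day 7 to day 4 of 1.06 (0.786–1.44). On day 14, 11 of the 14 Ereg UMIs were in Leydig-like cells (3.38 CPM, 1.69–6.04) and 3 in differentiating Leydig-like cells (1.54 CPM, 0.317–4.49), intervals that overlap.

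Nrg1 was higher on day 7 than on day 4 also within proliferating and differentiating myofibroblast-like cells. In proliferating cells it stood at 8.73 CPM (5.65–12.9) on day 4 and 17.4 CPM (12.8–23.2) on day 7, a ratio of 1.998 (1.21–3.39). In differentiating myofibroblast-like cells it stood at 8.95 and 23.8 CPM, a ratio of 2.66 (1.04–5.73) that rests on 7 UMIs on day 7. On day 7 the ECM myofibroblast-like level of 18.3 CPM (15.3–21.7) was 3.65 times the differentiating Leydig-like level of 5.01 CPM (1.63–10.1). The differentiating Leydig-like cells of day 4 held 0 Nrg1 UMIs, which at their depth allows up to 10.3 CPM, above the day 7 level of that state, so no difference between the days was detectable there.

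Egfr differed less between states than Hbegf. On day 4 it stood at 80.6 CPM (74.9–86.6) in differentiating myofibroblast-like, 72.6 (63.1–83.2) in proliferating and 44.4 (23.7–76.0) in differentiating Leydig-like cells, in the same order as Hbegf, and the first level was 1.81 times the last (1.05–3.42) where that of Hbegf was 44.2 times. On day 7 the Egfr level was 64.5 CPM (58.8–70.6) in ECM myofibroblast-like cells and 69.3 (55.2–85.9) in differentiating Leydig-like cells, a ratio of 0.931 (0.736–1.19) where that of Hbegf was 6.05. On day 14 it stood at 64.0 CPM (53.3–76.2) in differentiating Leydig-like and 31.6 (25.8–38.3) in Leydig-like cells. The Leydig-like cells, those with the steroid enzymes, were 2.02-fold below the differentiating Leydig-like level of the same library (1.55–2.65). Theirs was the lowest value given, but the interval of the day 4 differentiating Leydig-like cells contains it. Leydig-like cells were also deeper, with medians of 5604.5 against 2206.5 UMIs. They were 42.5% of day 14 cells and held 44.2% of its Egfr UMIs but 61.2% of all its UMIs. Their lower Egfr level is thus relative to all UMIs and was not seen per cell. Within differentiating Leydig-like cells, the day 14 level was 0.923 of the day 7 level (0.694–1.23).

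Each state was also compared with the other named states of its day by the same 2-fold rule. On day 4, 4 of 6 genes passed in at least 1 of the 3 states (Hbegf, Ereg, Tgfa and Nrg1), against 35.5% of 11578 genes, and apart from Hbegf these calls rest on few UMIs in differentiating Leydig-like cells: 3 for Ereg, 2 for Tgfa and 0 for Nrg1. The intervals of the Tgfa ratio (3.46, 0.396–13.9) and of the Nrg1 ratio (up to 1.44) include no difference. On day 7, 3 of 5 genes passed in at least 1 of 4 states (Hbegf, Ereg and Nrg1), against 32.6% of 11708 genes. On day 14, 1 of 2 genes passed (Hbegf) between the 2 states, against 9.96% of 10256 genes. Egfr passed under several alternative settings on day 14, and at a finer clustering resolution Hbegf alone passed on day 4.

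**Figure D4:**
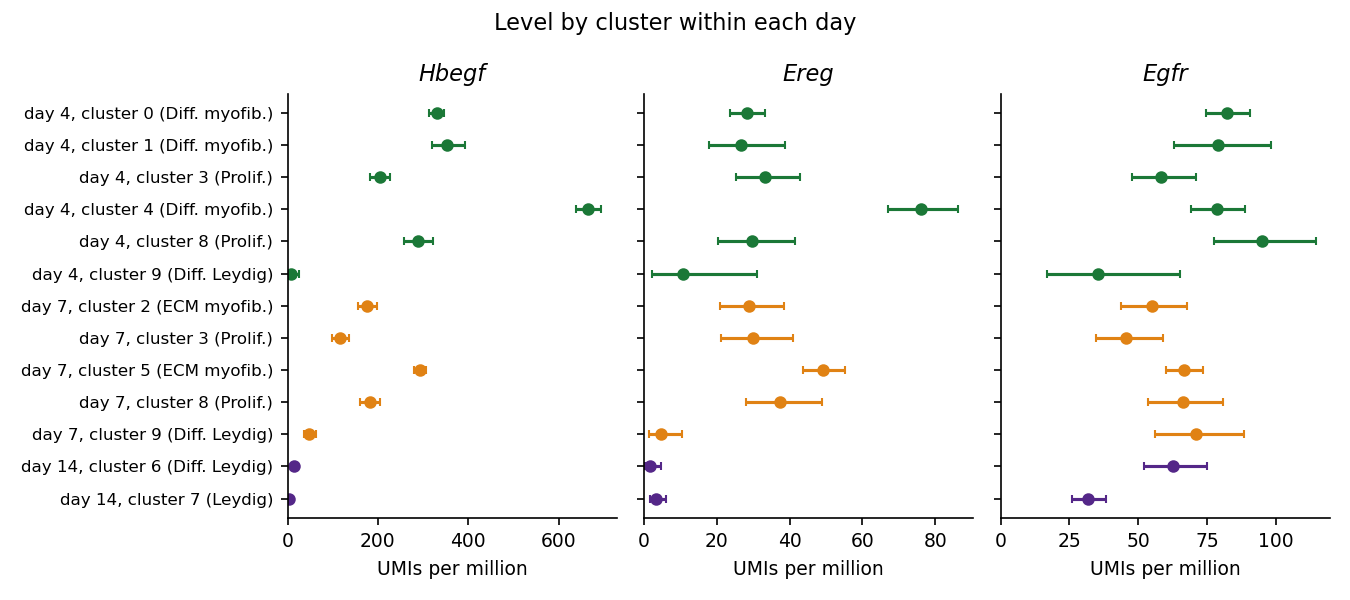
Level of Hbegf, Ereg and Egfr in CPM by cluster within each day, for clusters with at least 50 cells (names in brackets; bars are exact Poisson 95% intervals). Cluster 4 of day 4 held the highest Hbegf level, 665.5, and the highest Ereg level, 76.2, while its Egfr level was 78.6.

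The differentiating myofibroblast-like cells of day 4 were not uniform. They fell in cluster 0 (811 cells, led by F3, Ifit3 and Ifitm1), cluster 1 (773 cells, led by Ifi27l2a, Lpl and Irf7, with a median over the cluster of only 1207 UMIs) and cluster 4 (640 cells, with Ankrd1 and Fst among its leading genes). Hbegf stood at 329.9 CPM (314–346) in cluster 0, 353.9 CPM (319–392) in cluster 1 and 665.5 CPM (638–694) in cluster 4. The level of cluster 4 was 2.02 times that of cluster 0 (1.89–2.15) and 1.88 times that of cluster 1 (1.68–2.10), and the thinned shares were 46.1%, against 26.9% and 27.9%. Other ligand genes were also higher in cluster 4, with 2.702 times the level of cluster 0 for Ereg (2.19–3.35), 2.94 times for Nrg1 (1.78–4.95) and 1.71 times for Btc (1.196–2.46). Against cluster 1 the ratio was 2.85 for Ereg (1.93–4.38), while those for Nrg1 (1.97, 0.924–4.80) and Btc (1.83, 0.987–3.72) had intervals that include no difference. Egfr was alike in clusters 4 and 0 within counting error, with a ratio of 0.955 (0.814–1.12). Hbegf was among the leading genes of cluster 4 although it had no part in the clustering.

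The ECM myofibroblast-like cells of day 7 were not uniform either. Their main clusters differed in depth, with medians over the cluster of 8629 UMIs in cluster 5 and 1922 UMIs in cluster 2. The deeper of their main clusters, cluster 5 (572 cells, led by Mgll, Anxa8 and Gadd45a), held 1.66 times the Hbegf level of cluster 2 (1.46–1.89), which had 669 cells led by Grem1, Hmga2 and Postn. The ratio was 1.71 for Ereg (1.25–2.40) and 1.96 for Btc (1.26–3.18). For Nrg1 it was 0.869 (0.578–1.34) and for Egfr 1.21 (0.957–1.55), both with intervals that include no difference.

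Whether the ligands were made by the same cells was read from thinned cells, as a description over cells of 1 library. On day 4, an Ereg UMI was seen in 7.84% of the 689 cells with a Hbegf UMI (5.94–10.1) and in 3.64% of the cells without one (2.76–4.70). On day 7 the shares were 7.45% (4.83–10.9) and 3.80% (2.87–4.93). With barcodes that share 11 bases merged, a setting added after the data had been seen, the day 4 shares were 8.27% (6.07–10.9) and 3.83% (2.87–5.01), and those of day 7 were 7.26% (4.36–11.2) and 4.20% (3.08–5.58), the last with overlapping intervals. Within cluster 4 of day 4 the shares were 11.9% (8.40–16.3) and 8.71% (5.91–12.3) and within cluster 0 they were 3.79% (1.65–7.33) and 2.09% (1.08–3.62), with overlapping intervals in both. For the other ligand genes the intervals overlapped: a Nrg1 UMI was seen in 1.16% (0.503–2.27) of cells with and 1.56% (1.002–2.31) of cells without a Hbegf UMI on day 4, and in 2.80% (1.29–5.24) and 2.61% (1.84–3.57) on day 7. Btc was seen in 2.47% (1.44–3.92) and 1.82% (1.21–2.62) on day 4 and in 4.04% (2.17–6.80) and 2.39% (1.66–3.33) on day 7. For Egfr the intervals overlapped as well, with 10.2% (8.01–12.7) of cells with and 9.82% (8.38–11.4) of cells without a Hbegf UMI on day 4, and 8.39% (5.60–12.0) and 8.31% (6.93–9.87) on day 7.

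The genes whose levels over the 9 groups of state and day were most like that of Hbegf, among 9168 genes with at least 200 UMIs, were Inhba (Pearson r = 0.992), Cul5 (0.988), Cdkn2b (0.988), Nuak2 (0.985) and Actn4 (0.983). Inhba encodes a subunit of activin, Cul5 a scaffold of ubiquitin ligases, Cdkn2b an inhibitor of cyclin-dependent kinases, Nuak2 a kinase of the AMPK family and Actn4 an actin crosslinker. Of the family, Ereg had r = 0.864 with Hbegf, Nrg1 0.855, Btc 0.803, Egfr 0.766, Erbb2 0.752, Areg 0.571 and Tgfa -0.443. The genes most like Egfr were Akap13 (0.932), an anchor protein of protein kinase A, Egr2 (0.918), a zinc finger transcription factor, Igf1r (0.914), the IGF1 receptor, Pkd2 (0.909), a calcium channel, and Mysm1 (0.902), a histone deubiquitinase. These correlations are descriptions over log2 levels of 9 groups that come from only 3 libraries, and groups of a library share its depth and handling.

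**Figure D5:**
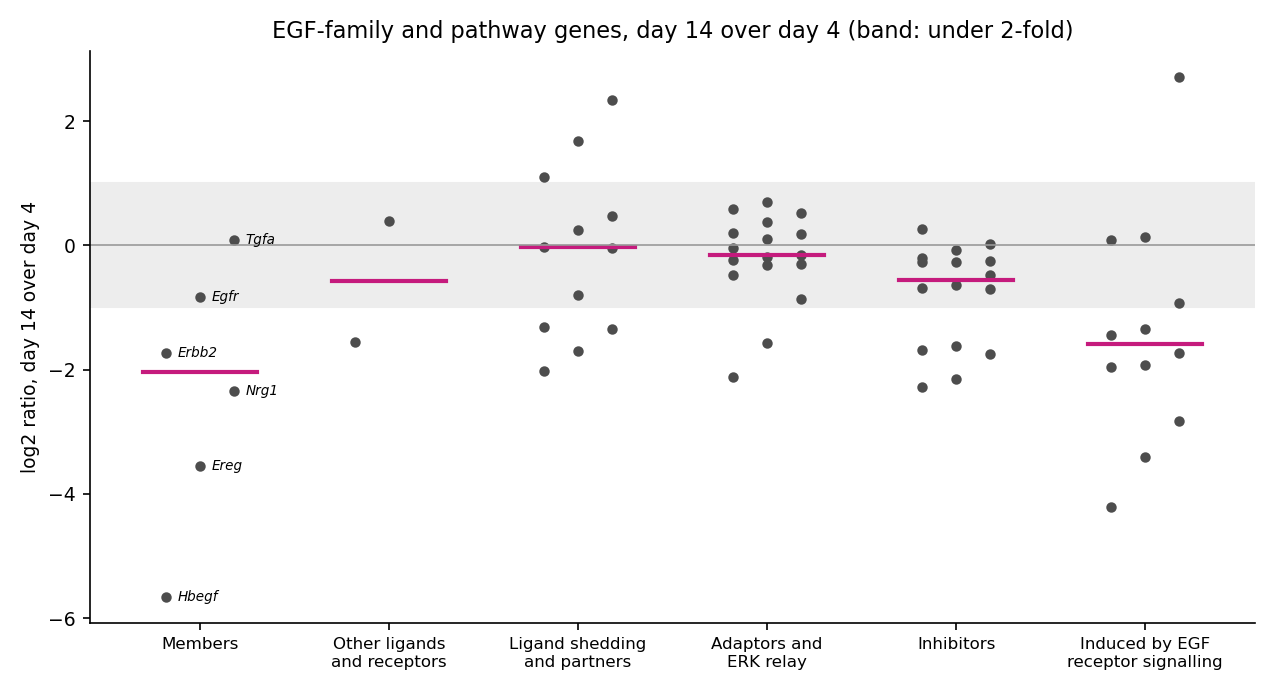
Log2 ratio of day 14 to day 4 (pseudocount 1 CPM) for each gene with at least 20 UMIs, by list; the grey band holds differences under 2-fold and pink bars are medians. The medians were -1.59 for genes induced by EGF receptor signaling, -0.56 for inhibitors, -0.16 for adaptors and ERK relay and -0.03 for shedding and partners.

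Other genes of the pathway were read as lists drawn from general knowledge, and day differences in them come from the same 3 libraries as the states. Among 12 genes that release the ligands or sit beside them in the membrane, 4 were past 2-fold lower on day 14 than on day 4 (Adam9, Adam19, Timp3 and Cd9) and 3 higher (Adam15, Rhbdf2 and Cd82), beside 15.3% lower and 13.5% higher among all genes, with a median log2 ratio of -0.03 beside -0.05 over all genes. Cd9, a tetraspanin that binds the HB-EGF precursor, stood at 236, 344 and 57.1 CPM on days 4, 7 and 14, while the tetraspanin Cd82 stood at 7.65, 12.8 and 42.8 CPM. Timp3, an inhibitor of ADAM proteases, stood at 601, 905 and 242 CPM, and the protease Adam9 at 194, 124 and 58.8 CPM. The list therefore held large differences in both directions. From day 4 to day 7 none of its 12 genes passed 2-fold, where only 2.76% of all genes passed as lower and 2.25% as higher.

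For the 17 genes of the adaptors and the ERK relay, the median log2 ratio of day 14 to day 4 was -0.16, beside -0.05 over all genes. Of them, 0 passed 2-fold as higher, where 13.5% of all genes did. Nras, a small GTPase, stood at 107, 89.9 and 35.1 CPM on days 4, 7 and 14 and was past 2-fold lower on day 14 than on day 4. Shc1, an adaptor, stood at 23.6, 36.7 and 19.0 CPM, and Map2k1, the kinase upstream of ERK, at 73.0, 69.9 and 39.8 CPM, and neither passed 2-fold between those days.

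Among 16 inhibitors of the receptor and the pathway, 5 were past 2-fold lower on day 14 than on day 4 (Lrig1, Socs5, Spry1, Dusp4 and Dusp6) and 0 higher, against 15.3% and 13.5% of all genes, with a median log2 ratio of -0.56 beside the -0.05 of all genes. Dusp6, the phosphatase of ERK, stood at 61.1, 63.0 and 11.8 CPM, and Dusp4, a phosphatase of the same family, at 58.4, 68.2 and 16.7 CPM. Socs5 stood at 95.4, 94.0 and 20.7 CPM, and Spry1 at 110, 62.9 and 33.4 CPM. Errfi1, an inhibitor of the receptor kinase that the signal itself induces, was the only gene of the list past 2-fold between days 4 and 7. In that comparison 2.76% of all genes passed as lower and 2.25% as higher. Errfi1 is named after its values were seen, as are Lrig1 here and Adam15, Adam19 and Rhbdf2 above. It stood at 231, 88.3 and 192 CPM. On day 14 it was at 387.5 CPM in differentiating Leydig-like and 79.2 CPM in Leydig-like cells.

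Of 12 genes known to be induced by EGF receptor signaling, 8 were past 2-fold lower on day 14 than on day 4 (Fosl1, Myc, Ier3, Phlda1, Plaur, Etv4, Ccnd1 and Ptgs2) and 1 higher (Fos), where 15.3% of all genes were lower and 13.5% higher, with a median log2 ratio of -1.59 beside -0.05 over all genes. Many other signals induce these genes as well. Fosl1, a subunit of AP-1, stood at 21.0, 25.6 and 0.188 CPM (1 UMI on day 14), Plaur, the urokinase receptor, at 27.6, 16.7 and 1.69 CPM, and Phlda1 at 74.1, 37.0 and 9.58 CPM. Fos, another subunit of AP-1, differed in the other direction and stood at 11.9, 12.3 and 83.8 CPM. From day 4 to day 7 only Ier3 passed, from 78.9 to 25.03 CPM, where 2.76% of all genes passed as lower and 2.25% as higher. Myc, Ier3, Etv4, Ccnd1, Ptgs2 and, among the states, Egr1 are named after their values were seen.

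Differentiating myofibroblast-like and differentiating Leydig-like cells of day 4 come from the same library. Of the induced genes given here, only Plaur and Fosl1 had separate intervals between these states. Some genes of the other lists were also separate, in both directions. Dusp4 stood at 61.5 CPM (56.6–66.8) and 6.84 CPM (0.828–24.7), and Cd82 at 7.44 CPM (5.79–9.41) and 30.8 CPM (14.1–58.4). Plaur stood at 29.1 CPM (25.7–32.8) in differentiating myofibroblast-like and 3.42 CPM (0.0865–19.0) in differentiating Leydig-like cells of day 4, and Fosl1 at 20.2 CPM (17.4–23.3) and 0 CPM, which allows up to 10.3 CPM. Phlda1 differed less, at 76.0 CPM (70.5–81.8) and 41.0 CPM (21.2–71.7). Egr1, a zinc finger early response gene, stood at 142 CPM (134–150) and 120 CPM (83.3–166), and both genes had overlapping intervals. Fos read 11.2 CPM (9.16–13.6) in differentiating myofibroblast-like and 27.3 CPM (11.8–53.9) in differentiating Leydig-like cells, with overlapping intervals. Intervals of the ratio between states were not computed for these induced genes, so overlap does not show equal levels. On day 14, Fos stood at 142 CPM (126–160) in differentiating Leydig-like and 51.9 CPM (44.3–60.3) in Leydig-like cells.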

How the data were processed

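Drop-seq of single cells from the Leydig culture gave 3 libraries, for days 4, 7 and 14. The deposited values are raw UMI counts per gene and cell barcode. The authors aligned reads to GRCm38 with STAR (2.5.2a in the submitters' processing notes, where Picard 2.6.0 and SAMtools 1.2 are also named) and counted with Drop-seq tools. The merged table of cells the authors kept was used, after entry by entry comparison with the tables per day (0 entries differed). Its 495 columns of other cells were not used. The study kept barcodes with 500 or more genes and no more than 10% of UMIs from mitochondrial genes.

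UMIs were summed per day, state or cluster and given per 1000000 UMIs, with exact Poisson and exact conditional binomial intervals at 95%, and shares of cells with Clopper-Pearson intervals. With 1 library per day no p-value was computed. Differences were called past 2-fold on log2(CPM + 1) with at least 20 UMIs in the comparison. A value of 0 is given the limit of 3 UMIs. Thinning to 1500 UMIs left out 753, 429 and 179 cells. Cells were clustered in Seurat 5.3.0 under R 4.3.3 with 72 genes (those reported and the pathway lists) left out, 2000 variable genes, 20 components, 20 neighbours and Louvain resolution 0.8. A name needed at least 3 markers at 1.5 times the other cells, with 10 or more UMIs each. Where lists tied, the rule was set after the clusters had been seen, which left 1 cluster of 53 cells with germ cell and macrophage genes unnamed. The study's clusters were not rebuilt exactly. Scrublet (scanpy 1.11.5) called 0, 2 and 1 doublets and so did not work here, and removal of the 6% highest scores was an alternative instead. Other values came from Python 3.11.15, numpy 2.4.6, scipy 1.17.1 and pandas 2.3.3, figures from matplotlib 3.10.9, with seed 1. The scripts were tested on simulated data.

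The genes and lists were chosen with earlier results of these data known. Named genes were the family, the 4 genes of each list with the largest log2 ratio between days among those with at least 100 UMIs, and the 5 genes most like Hbegf and Egfr. Marker lists of 12 cell types, with 101 genes, checked the states. Alternatives were every deposited barcode, a tighter selection of cells (800 or more genes, no more than 5% mitochondrial UMIs), doublet removal, equal weight per cell, thinning, median-ratio scaling, pseudocounts of 0.1 and 5 CPM, no minimum of UMIs, resolutions 0.4 and 1.2, 30 components, all genes kept in the clustering and a state given to each cell by itself. Merging barcodes that share 11 bases was added after seeing the data. Some items are not reported here.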

Additional observations from a re-analysis of the deposited data

Results flagged for a closer look

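The Hbegf ratio of day 7 to day 4 took opposite directions in different states: 0.634 in proliferating progenitor-like and 0.293 in differentiating myofibroblast-like cells, but 4.32 in differentiating Leydig-like cells. The difference between states was not tested, since each day has 1 library, and the last ratio rests on 3 UMIs on day 4.

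The barcodes that the authors did not keep as cells also held EGF-family UMIs. They entered only the alternative with every deposited barcode. The 320 such barcodes of day 4 read 355 CPM for Hbegf, 24.9 CPM for Ereg and 106 CPM for Egfr, and the 229 of day 7 read 184, 50.1 and 83.5 CPM. The 327 barcodes of day 14 held 1 Hbegf UMI.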

How the results depend on the processing

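The log2 ratio of Hbegf lay between -6.01 and -5.07 for day 14 over day 4, between -5.13 and -4.20 for day 14 over day 7 and between -1.13 and -0.85 for day 7 over day 4 in all settings run on days. That of Ereg for day 14 over day 4 lay between -3.93 and -2.61, and that of Egfr between -0.96 and -0.77. The count of genes past 2-fold lower on day 14 was 3 or 4 against either earlier day, and a pseudocount of 5 CPM brought Erbb2 to -0.51 (day 7) and -0.77 (day 4). From day 4 to day 7 the count was 1 (Hbegf, lower) with equal weight per cell and with thinned cells. Between states the count was 1 (Hbegf) on day 4 at resolution 1.2. On day 7 it was 5 with no minimum of UMIs and 6 with a state given to each cell by itself. On day 14 it was 2 (Hbegf and Egfr) after doublet removal, with equal weight per cell, with a pseudocount of 0.1 CPM, at resolution 1.2 and with 30 components, and 3 with no minimum of UMIs. The log2 ratio of Tgfa in differentiating Leydig-like cells of day 4 to the other states reversed to -1.54 with thinned cells. For all of these the cause was not tested. Of the other values under alternatives, 937 moved by less than counting error or kept their call and 49 moved by more. Median-ratio scaling shifted all log2 ratios by -0.06, 0.11 and 0.04 for day 7 over day 4, day 14 over day 7 and day 14 over day 4.

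Depth limits Areg, Tgfa, Erbb2 and, on day 14, Nrg1 and Ereg, which rest on few UMIs. No paired analysis was possible because each day has 1 library.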
